A study of Mus musculus with 10 samples.

Results

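The glucocorticoid receptor gene Nr3c1 and 6 genes known to respond to glucocorticoid hormone in thymocytes, Ddit4, Tsc22d3, Pik3ip1, Il7r, Per1 and Mt1, were followed across mouse thymus of 4 genotypes. These 7 genes, each read by 1 array feature, were taken from a table of 23332 features, in which features with a single gene symbol covered 14860 genes. They were listed by name as the receptor and its targets, and selected on the log2 signals of these same samples in the 4 groups, so their levels and differences are given as a description, and counts of them past a threshold support nothing. Whole thymus was taken from C57BL6/129 hybrid mice aged 4 to 5 weeks, and labelled cDNA was read on Affymetrix whole-transcript arrays. The groups were p53(-/-)mdm2(+/+), called p53-null with mdm2 (n = 3), p53(246/246)mdm2(+/+), called mutant p53 with mdm2 (n = 3), p53(-/-)mdm2(-/-), called p53-null without mdm2 (n = 2), and p53(246/246)mdm2(-/-), called mutant p53 without mdm2 (n = 2). No group had wild-type p53, so the loss or mutation of both p53 alleles was shared by all 10 samples. The comparisons asked whether these transcripts differed with the mutant allele, relative to no p53, and with the loss of mdm2. The labels do not say more on whether replicates were separate animals, and the spread between them may be in part technical.

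Glucocorticoids pass into the cell and bind the receptor encoded by Nr3c1, which is held ready by the chaperone Hsp90 and its partners. The bound receptor enters the nucleus and acts on genes through palindromic glucocorticoid response elements. Double positive thymocytes, the immature majority of thymic cells, are known to be killed by the hormone. Among the targets, Ddit4 restrains the growth kinase mTORC1 and is also a known target of p53, Tsc22d3 encodes the leucine zipper protein GILZ, and Pik3ip1 encodes a membrane protein that inhibits PI3 kinase. Il7r encodes the alpha chain of the interleukin-7 receptor, which early and mature thymocytes need and double positive cells largely lack. Per1 is a repressor of the circadian clock, and Mt1 encodes a metal-binding metallothionein.

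Sequence 5' of the annotated starts is shown for the gene with the widest range of signal, for the clock gene and for the metallothionein gene, the last because it was the only one with a match to the response element core. The 250 bases before each start were taken from RefSeq (build GRCm38.p6), and 6 of the 7 genes had such windows, 9 in all. Motifs were searched on both strands, and capitals mark matches to the glucocorticoid response element core (GNACA and TGTNC with 3 bases of any kind between them), the metal response element core (TGCGCNC or TGCACNC), the E-box CACGTG bound by clock factors, and a FoxO site (TGTTTAC). The matches shown did not overlap.
Ddit4, chr10:59951771-59952020, minus strand: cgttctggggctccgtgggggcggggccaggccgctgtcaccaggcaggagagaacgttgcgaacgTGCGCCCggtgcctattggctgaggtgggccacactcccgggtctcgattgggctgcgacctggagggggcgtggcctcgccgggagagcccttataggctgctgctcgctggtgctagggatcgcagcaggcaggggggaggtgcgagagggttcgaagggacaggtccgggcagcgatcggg
Per1, chr11:69098699-69098948, plus strand: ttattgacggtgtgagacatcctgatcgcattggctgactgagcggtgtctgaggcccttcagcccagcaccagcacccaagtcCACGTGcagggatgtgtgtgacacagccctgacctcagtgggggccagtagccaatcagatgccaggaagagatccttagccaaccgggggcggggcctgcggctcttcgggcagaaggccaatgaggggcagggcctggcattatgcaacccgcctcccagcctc
Mt1, chr8:94178839-94179088, plus strand: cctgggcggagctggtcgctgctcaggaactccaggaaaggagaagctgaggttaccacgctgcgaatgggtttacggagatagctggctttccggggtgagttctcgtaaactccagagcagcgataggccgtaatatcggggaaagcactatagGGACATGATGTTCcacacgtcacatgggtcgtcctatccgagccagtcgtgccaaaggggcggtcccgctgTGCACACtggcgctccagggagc
In Mt1 the response element core began 94 bases before the start and a metal response element core 23 bases before it. In Per1 an E-box began 166 bases before the first of 2 starts, and a metal response element core 69 bases before the second, whose window is not shown. In Ddit4 a metal response element core began 184 bases before the start. Of 32851 windows of the same length, 0.387% held the glucocorticoid response element core, 6.02% an E-box, 21.4% a metal response element core and 3.17% a FoxO site. The windows of Tsc22d3 (3 starts), Pik3ip1 and Il7r held none of these letters, which says nothing of sites elsewhere.

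Sample medians were between 6.10 and 6.26 on the log2 scale, and correlations between samples across features between 0.967 and 0.991. Mdm2 was between 9.47 and 9.62 in the 6 samples labelled mdm2(+/+) and between 8.28 and 8.43 in the 4 labelled mdm2(-/-), in the direction of the labels. The array names had 3 prefixes, of which 0 held samples of both mdm2 genotypes, so mdm2 loss cannot be told apart from whatever the prefix stands for, which the labels do not state. The same holds for the p53 genotype without mdm2. Only the groups with mdm2 shared a prefix. Thymocyte markers were present in all samples, with Cd4 between 10.74 and 11.36, Dntt between 11.86 and 12.33 and the epithelial gene Psmb11 between 8.27 and 8.99. Liver markers (8 of 9 measured) had a mean of 4.08 to 4.39 with mdm2 and of 6.52 to 9.48 without it, and adipocyte markers (7 of 8 measured) one of 5.31 to 6.42 and of 5.70 to 7.58. The part of these other tissues in the values below was not tested.

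The receptor gene Nr3c1 spanned 0.70 on the log2 scale over the 10 samples, a 1.62-fold difference between the highest and the lowest. Its log2 signal was 10.21, 9.95 and 10.24 in p53-null thymi with mdm2, and 10.18, 9.98 and 10.40 in mutant p53 thymi with mdm2. Without mdm2 it was 9.97 and 10.33 in p53-null thymi and 9.86 and 9.70 in mutant p53 thymi. Both mutant p53 samples without mdm2 thus lay below all the others, whereas the remaining 3 groups overlapped. Means differed by 0.05 (SE 0.15) between p53 genotypes with mdm2, and that of mutant p53 thymi was lower by 0.41 without mdm2 than with it (log2 difference -0.41, SE 0.17). Fewer cells of a type and less RNA per cell cannot be told apart in these whole tissue samples.

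Ddit4 had the widest range, with a signal 7.23-fold higher in the highest of the 10 samples than in the lowest. It was 8.52, 8.68 and 9.54 in p53-null thymi with mdm2 and 10.19, 9.75 and 9.78 in mutant p53 thymi with mdm2. Without mdm2 it was 7.43 and 10.13 in p53-null thymi and 8.34 and 7.34 in mutant p53 thymi. Among samples with mdm2, each mutant p53 thymus was above each p53-null thymus, by a log2 difference of 0.99 between means (SE 0.61). In mutant p53 thymi the groups with and without mdm2 were separated by a gap of 1.41, and the mean without mdm2 was 4.20-fold lower (log2 difference -2.07, SE 0.68). Only 7 of 23332 features had a lower difference than Ddit4 in that comparison, which is a description of a gene chosen with this value known. In order of means, mutant p53 with mdm2 at 9.91 ± 0.25 (SD, n = 3) came first, then p53-null with mdm2 at 8.91 ± 0.54 (SD, n = 3), p53-null without mdm2 at 8.78 ± 1.91 (SD, n = 2) and mutant p53 without mdm2 at 7.84 ± 0.71 (SD, n = 2). The p53-null samples without mdm2 spanned almost the whole range, so that group overlapped all the others.

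Tsc22d3 is a classical direct target of the receptor. It was 7.43, 7.48 and 8.60 in p53-null thymi with mdm2 and 8.29, 8.25 and 8.47 in mutant p53 thymi with mdm2. Without mdm2 it was 7.26 and 9.09 in p53-null thymi and 7.37 and 7.15 in mutant p53 thymi. The mutant p53 thymi without mdm2 lay below those with mdm2 by a gap of 0.88, a 2.11-fold difference of means (log2 difference -1.08, SE 0.50). With mdm2 the p53 genotypes overlapped, since replicate 3 of the p53-null group was above all mutant p53 samples, and their means differed by 0.50 (SE 0.45).

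Pik3ip1 showed the same separation at a smaller size. It was 9.41, 9.52 and 9.91 in p53-null and 9.87, 9.61 and 9.89 in mutant p53 thymi with mdm2, which overlapped. Without mdm2 it was 9.48 and 10.29 in p53-null thymi and 9.22 and 9.45 in mutant p53 thymi. In mutant p53 thymi the groups were 0.16 apart and their means differed by -0.45 (SE 0.25). The gap between p53 genotypes without mdm2 was only 0.03.

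Il7r took another course. It was 9.20, 9.20 and 9.05 in p53-null thymi with mdm2 and 8.96, 8.72 and 8.92 in mutant p53 thymi with mdm2, where each mutant p53 sample was below each p53-null sample (log2 difference -0.28, SE 0.21). Without mdm2 it was 9.19 and 8.27 in p53-null thymi and 8.29 and 8.30 in mutant p53 thymi. Thus 3 of the 4 samples without mdm2 were near 8.3, below all samples with mdm2, and the other one was within the range of the p53-null group with mdm2. The means of mutant p53 thymi with and without mdm2 were -0.58 apart (SE 0.23). In order of means, p53-null with mdm2 at 9.15 ± 0.08 (SD, n = 3) preceded mutant p53 with mdm2 at 8.87 ± 0.13 (SD, n = 3), p53-null without mdm2 at 8.73 ± 0.65 (SD, n = 2) and mutant p53 without mdm2 at 8.293 ± 0.005 (SD, n = 2), and the p53-null group without mdm2 overlapped each of its neighbours.

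Per1 was highest in p53-null thymi without mdm2, at 6.97 and 7.06. It was 6.55, 6.67 and 6.76 in p53-null thymi with mdm2, 6.66, 6.47 and 6.57 in mutant p53 thymi with mdm2 and 6.77 and 6.53 in mutant p53 thymi without mdm2, and these 3 groups overlapped. In p53-null thymi the means with and without mdm2 differed by 0.36 (SE 0.13).

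Mt1 was the one gene whose groups overlapped in each of the 4 comparisons of single groups. It was 7.55, 8.12 and 7.61 in p53-null thymi with mdm2 and 7.41, 7.95 and 7.24 in mutant p53 thymi with mdm2. Without mdm2 it was 7.76 and 8.19 in p53-null thymi and 7.93 and 7.92 in mutant p53 thymi. Over both p53 genotypes the difference was 0.30 (SE 0.17) toward higher signal without mdm2. The related metallothionein gene Mt2, of the list of metal response genes and singled out after its values were seen, differed by 0.29 (SE 0.30, adjusted p = 0.66 by limma) and did not pass. The liver also makes metallothioneins, and the liver marker mean was higher in each sample without mdm2 than in each with it, as given above, but its part in the Mt1 signal was not tested.

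**Figure D1:**
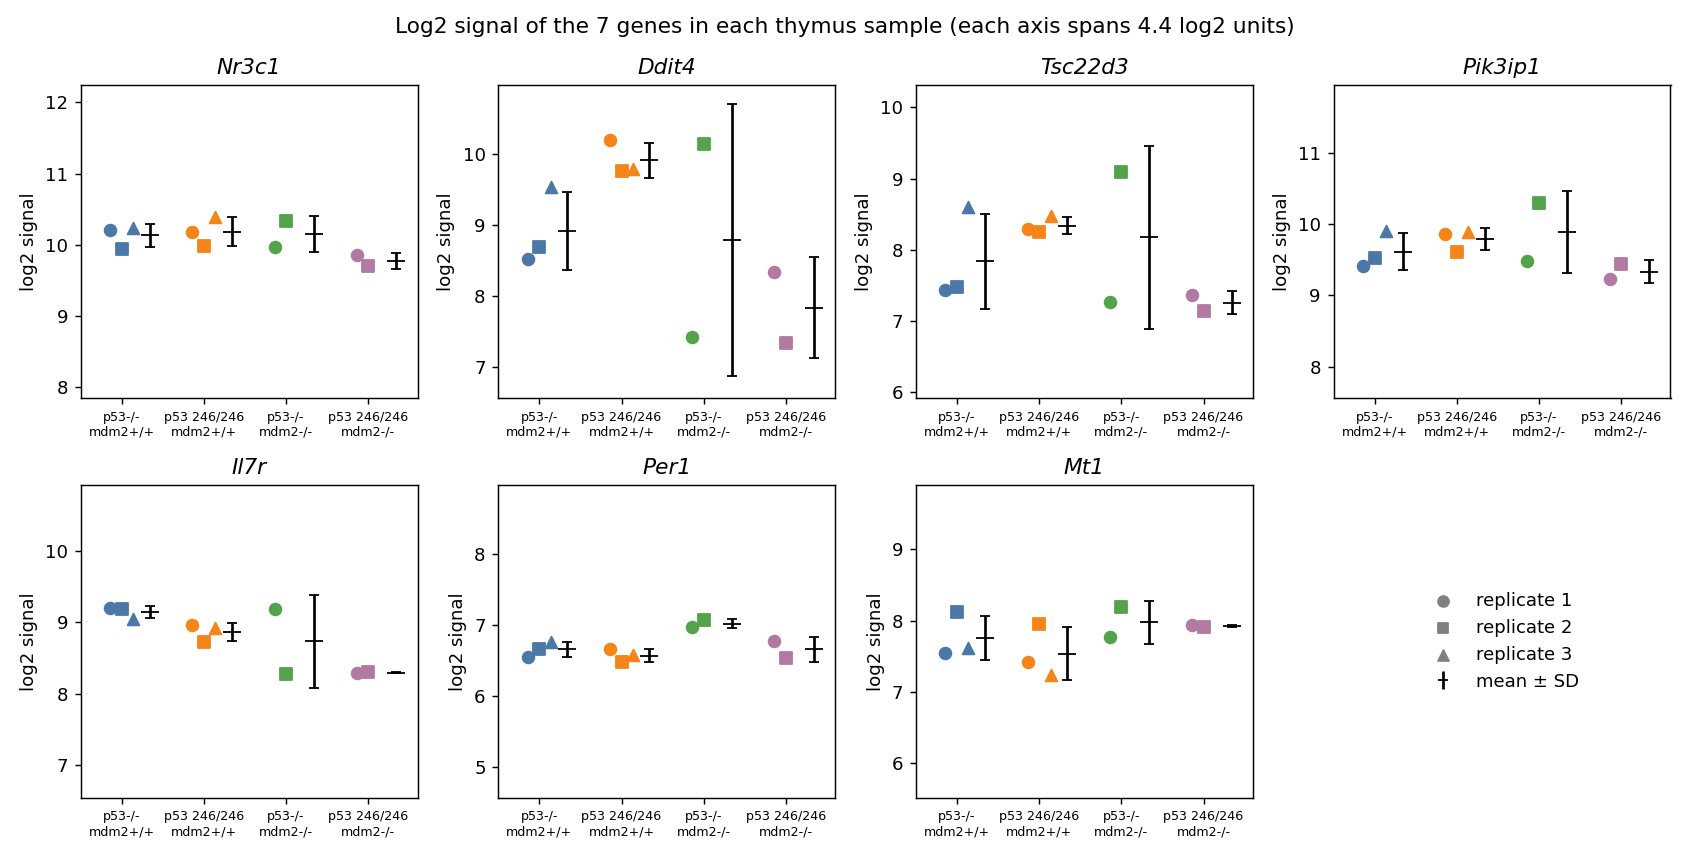
Log2 signal (y axis) of the 7 genes in each of the 10 thymus samples, by genotype group (x axis). Each symbol is 1 sample, its shape gives the replicate number, and black marks are the group mean ± SD. Ddit4 and Tsc22d3 spread widest, with the samples of the p53-null group without mdm2 at 7.43 and 10.13 for Ddit4.

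Across the 7 genes, limma called 0 in any comparison at an adjusted p under 0.05 over all features. The share of all features called was 3.87% for mdm2 loss over both p53 genotypes, 0.0214% for mdm2 loss in p53-null thymi, 0.0129% for mdm2 loss in mutant p53 thymi, and 0% for the p53 genotype with mdm2, for the p53 genotype without mdm2 and for the difference between these. At an unadjusted p under 0.05 limma gave 2, 1, 3, 0, 1 and 0 of the 7 genes in the same order, against 21%, 10.7%, 16.4%, 2.96%, 3.87% and 4.27% of all features. Since the genes were selected on these values, the counts are no evidence for or against a difference. For mdm2 loss over both p53 genotypes the calls depended on single samples. Without replicate 1 of the p53-null group that lacked mdm2, Il7r differed by -0.69 (SE 0.10). Without replicate 2 of that group, Ddit4 differed by -1.85 (SE 0.29). Each gene was then called, but in a fit that left 1 sample in that group, so these calls are no evidence either.

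Counted by samples that did not overlap, 5 of the 7 genes (Nr3c1, Ddit4, Tsc22d3, Pik3ip1 and Il7r) were lower in each mutant p53 thymus without mdm2 than in each with mdm2, as were 19.7% of all features. In p53-null thymi 1 of 7 (Per1) was separate and higher without mdm2, as were 12.3% of all features. Between p53 genotypes with mdm2, 2 of 7 were separate, Ddit4 higher and Il7r lower in mutant p53 thymi, beside 3.68% of all features higher and 3.99% lower. Without mdm2, 3 of 7 (Nr3c1, Pik3ip1 and Per1) were lower in mutant p53 thymi, beside 14.8% of all features. Over both p53 genotypes, 0 of 7 separated all samples with mdm2 from all without it, beside 8.45% of all features. As the genes were listed with these values known, the counts are given without a reading. The median of the 7 differences was -0.45 for mdm2 loss in mutant p53 thymi and 0.21 in p53-null thymi, beside -0.02 and -0.02 over all features. It was 0.05 for the p53 genotype with mdm2 and -0.44 without it, beside 0.00 and -0.01. These comparisons share groups, so their values are not independent of each other.

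**Figure D2:**
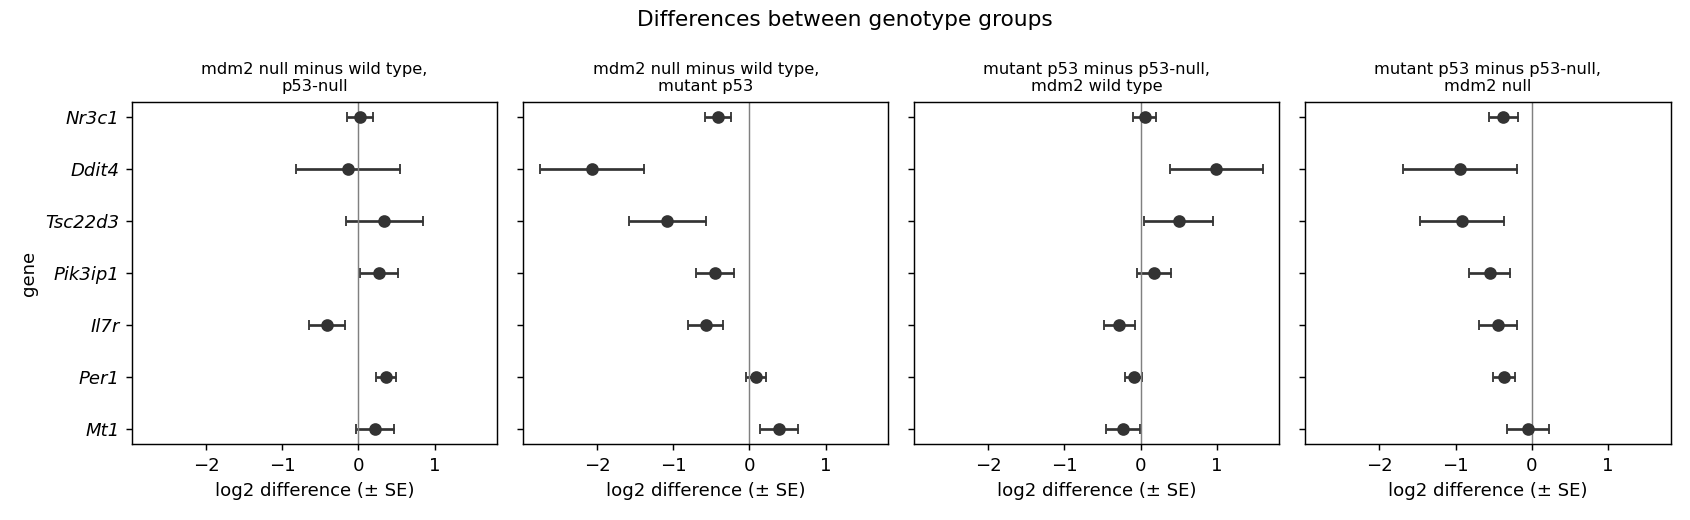
Log2 difference (x axis, ± SE from limma) of each of the 7 genes (y axis) in 4 comparisons between single groups. In mutant p53 thymi Ddit4 and Tsc22d3 lie at -2.07 and -1.08 for mdm2 loss, and in p53-null thymi all 7 lie between -0.41 and 0.36.

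In p53-null thymi the direction of the difference with mdm2 loss depended, for 5 of the 7 genes (Ddit4, Tsc22d3, Pik3ip1, Il7r and Nr3c1), on which of the 2 samples without mdm2 was used. Without replicate 1 of the group without mdm2, Ddit4 differed by 1.22 (SE 0.47), Tsc22d3 by 1.25 (SE 0.42), Pik3ip1 by 0.68 (SE 0.23) and Il7r by -0.87 (SE 0.15). Without replicate 2 the same genes differed by -1.49, -0.57, -0.13 and 0.05, with the same errors. Nr3c1 differed by 0.19 without replicate 1 and by -0.16 without replicate 2 (SE 0.20). Per1 was higher without mdm2 in both cases, by 0.41 and 0.31 (SE 0.17), and Mt1 differed by 0.43 and 0.004 (SE 0.31). Replicate 2 exceeded replicate 1 by 6.52-fold in Ddit4, 3.54-fold in Tsc22d3, 1.76-fold in Pik3ip1, 1.34-fold in Mt1, 1.28-fold in Nr3c1 and 1.07-fold in Per1. Only Il7r was lower in replicate 2, by 0.92 on the log2 scale (log2 difference -0.92).

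Cell type markers differed between these samples too. The double positive thymocyte mean (8 of 10 markers measured) was 10.43 in replicate 1 and 10.89 in replicate 2, against 10.73 to 10.89 in samples with mdm2. The early double negative mean (7 of 7 markers) was 6.11 and 5.44, and the mature single positive mean (10 of 11 markers) 8.97 and 8.57. Between these replicates both moved with Il7r and against Ddit4. Other lists did so too, with a B and plasma cell mean (4 of 6 markers measured) of 7.18 and 6.26. The macrophage and dendritic cell mean (6 of 7 markers measured) was 8.80 and 8.46. The adipocyte mean was 7.34 and 6.35 and the erythroid mean (4 of 7 markers measured) 5.77 and 4.83. The liver mean, like the double positive mean, moved the other way, from 6.52 to 9.48. In mutant p53 thymi without mdm2, replicates 1 and 2, the double positive mean was 10.56 and 10.53 and the mature single positive mean 8.70 and 8.55. The early double negative mean there was 5.88 and 5.69. Samples with mdm2 had an early double negative mean of 5.67 to 6.02 and a mature single positive mean of 8.67 to 8.97. The part of cell composition in the values of the 7 genes was not tested.

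After each group's mean was subtracted, Ddit4, Tsc22d3 and Pik3ip1 deviated together. Pearson's r over the 10 samples was 0.92 between Ddit4 and Tsc22d3, 0.91 between Tsc22d3 and Pik3ip1 and 0.81 between Ddit4 and Pik3ip1. Il7r deviated the other way, with r of -0.86 to Ddit4 and -0.85 to Tsc22d3. Samples of a group of 2 deviate by equal amounts in opposite directions, and the p53-null group without mdm2 holds the largest deviations of Ddit4, Tsc22d3, Pik3ip1 and Il7r. Without it, over 8 samples, r was 0.76, 0.77 and 0.41 for the first 3 pairs and -0.21 and -0.45 for those with Il7r. Ddit4 and Per1 had r of 0.66 over 10 samples and 0.92 over 8, and Nr3c1 and Mt1 -0.48 and -0.92. These values describe 21 pairs of chosen genes, of which 13 had a positive r over 10 samples and 12 over 8, and no test was made of them.

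**Figure D3:**
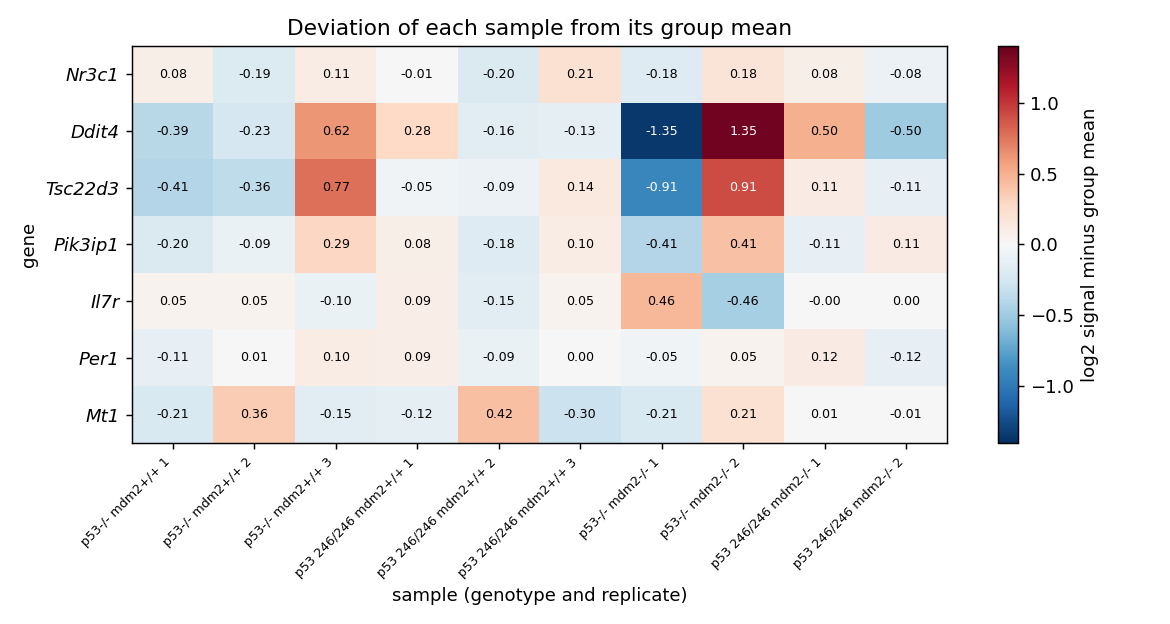
Deviation of each sample from its group mean (colour and printed value, log2 units) for the 7 genes (rows) in the 10 samples (columns). In p53-null replicate 2 without mdm2 Ddit4, Tsc22d3 and Pik3ip1 are above the mean by 1.35, 0.91 and 0.41, and Il7r deviates by -0.46.

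By the same measure, the genes most like each of the 7 were found among all 14860 genes. They were Rbck1, Fbxl14 and Sash3 for Ddit4 (r of 0.985 to 0.990), Zfp397, Smg8 and Hdac2 for Tsc22d3 (0.975 to 0.989) and Ubash3a, 2310022A10Rik and Ica1 for Pik3ip1 (0.984 to 0.987). For Il7r they were Hdac9, Sema6a and Banf2 (0.966 to 0.971), for Nr3c1 1700034J05Rik, Trim32 and Mds1 (0.943 to 0.973), for Per1 Gfra4, Dnajc18 and Snx18 (0.972 to 0.986), and for Mt1 S100a6, Arf1 and Crip2 (0.965 to 0.976). None of the 7 was among the 3 most like another of them. With 10 samples and so many genes searched, such values describe these samples only.

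Further genes of the pathway were then read from lists of its known parts. Of 24 other glucocorticoid-induced genes 20 were measured, and 0 rose and 1 fell with mdm2 loss over both p53 genotypes, beside 1.9% of all features that fell. The one was Btg1, an antiproliferative gene, which was 11.33, 11.54 and 11.38 in p53-null and 11.42, 11.47 and 11.36 in mutant p53 thymi with mdm2. Without mdm2 Btg1 was 10.92 and 11.18 in p53-null and 10.98 and 10.83 in mutant p53 thymi, so that each sample without mdm2 was below each with mdm2. Btg1 fell by 0.44 on the log2 scale (SE 0.09), with an adjusted p of 0.0326 by limma. That call did not hold when single samples were left out in 8 of 10 cases, with an adjusted p of up to 0.0963, nor with each sample's median subtracted (adjusted p = 0.0528), whereas the log2 difference stayed between -0.51 and -0.40 over 18 settings. The kinase gene Sgk1 differed by -0.27 (adjusted p = 0.119), the transcription factor gene Cebpb by 0.35 (adjusted p = 0.145) and the NF-kB inhibitor gene Nfkbia by -0.30 (adjusted p = 0.196), none of which passed by limma. The median of the 20 differences was -0.11, with 13 negative, beside -0.02 over all features. Fkbp5, a co-chaperone gene that the receptor induces strongly, was singled out after its values were seen, and differed by -0.10 (SE 0.15, adjusted p = 0.763 by limma).

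In the other 5 comparisons limma called 0 of these 20 genes. At an unadjusted p under 0.05 there were 3 for mdm2 loss in p53-null thymi, 3 for mdm2 loss in mutant p53 thymi, 0 and 1 for the p53 genotype with and without mdm2, and 0 for the difference between these. In the same order 10.7%, 16.4%, 2.96%, 3.87% and 4.27% of all features reached it. The median difference of the 20 genes was -0.01 and -0.22 for mdm2 loss in p53-null and mutant p53 thymi, and 0.04 and -0.20 for the p53 genotype with and without mdm2.

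The same genes also differed between the p53-null samples without mdm2. Of the 20, 14 (70%) were higher in replicate 2 than in replicate 1, with a median of 0.24, while 49.7% of all features were higher and their median was -0.002. Other lists shifted likewise, with 11 of 13 receptor chaperones and cofactors (84.6%, median 0.28), 8 of 11 PI3K and mTORC1 genes (72.7%) and 5 of 7 genes of corticosteroid synthesis and activation (71.4%) higher in replicate 2. The shares were 60% for IL-7 receptor signalling genes, 57.1% for metal response genes, 50% for FoxO and quiescence genes and 36.4% for circadian clock genes. The chaperone, corticosteroid synthesis and IL-7 receptor lists held dim genes, below the lower quartile of all features (4.30 to 4.45 by sample) in both replicates. Chosen after these values were seen, Zfp36l2, which encodes an RNA-binding protein that speeds mRNA decay, was 8.90 and 10.17. Lcn2 was 7.31 and 8.20 and Errfi1 7.91 and 8.72. The transcriptional repressor gene Bcl6 was 9.83 and 10.57 and Fkbp5 10.11 and 10.66, both smaller differences than those of Lcn2 and Errfi1. Anxa1 went the other way, at 9.61 and 8.57. The mean of the 20 genes was 8.55 in replicate 2, against 8.20 to 8.43 in the other 9 samples. This sets 1 sample against 1 other and has no replicate check.

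The lists on other steps of the pathway held 0 calls for mdm2 loss over both p53 genotypes by limma. Receptor chaperones and cofactors (13 of 19 measured) had a median difference of 0.00 and 4 genes at an unadjusted p under 0.05, which 21% of all features reached. Genes of corticosteroid synthesis and activation (7 of 10) had 0.22 and 3, circadian clock genes (11 of 15) -0.11 and 3, and FoxO and quiescence genes (8 of 9) -0.16 and 3. PI3K and mTORC1 genes (11 of 14), the pathway that Pik3ip1 and Ddit4 restrain, had -0.18 and 5, IL-7 receptor signalling genes (10 of 13) -0.07 and 1, and metal response genes (7 of 7) -0.12 and 0. The nuclear receptor gene Nr1d2 of the clock list, singled out after its values were seen, differed by -0.71 (SE 0.19) and did not pass (adjusted p = 0.068 by limma). It was between 8.38 and 8.73 in samples with mdm2, 8.29 and 8.23 in p53-null and 7.03 and 7.76 in mutant p53 thymi without mdm2.

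Over all 8 lists together, with 87 of 111 genes measured, limma called 1 gene for mdm2 loss over both p53 genotypes and 0 in each other comparison. At an unadjusted p under 0.05 there were 23 for mdm2 loss over both, 10 in p53-null and 18 in mutant p53 thymi, 0 for the p53 genotype with mdm2, 7 for it without mdm2, and 3 for the difference between these. Of all features 21%, 10.7% and 16.4% reached it in the first 3 of these comparisons, and 2.96%, 3.87% and 4.27% in the others. With mdm2 the median difference between p53 genotypes was 0.04, and no gene lay outside -0.26 to 0.38.

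**Figure D4:**
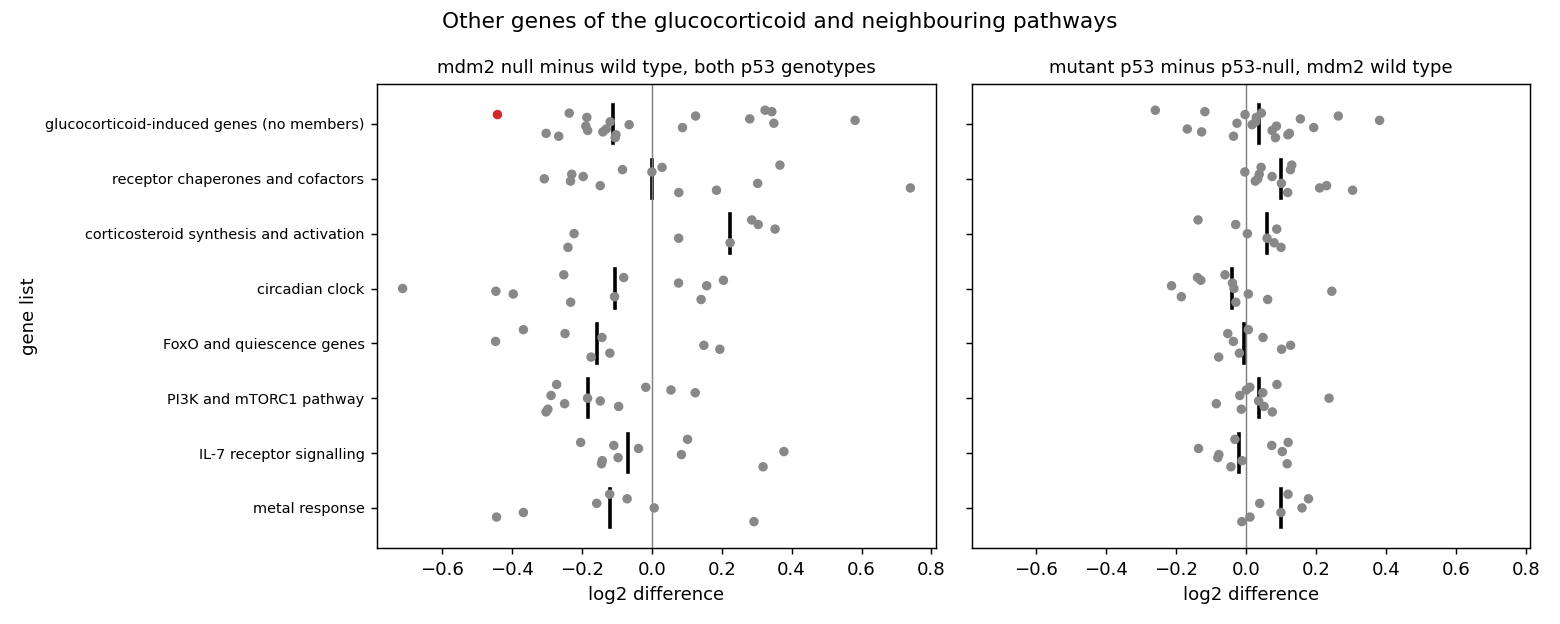
Log2 difference (x axis) of the 87 measured genes of 8 pathway lists (y axis), for mdm2 loss over both p53 genotypes and for mutant p53 against p53-null thymi with mdm2. Each point is a gene, the black bar is the median of its list, and red marks the 1 gene called by limma, Btg1 at -0.44.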

How the data were processed

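Thymus RNA was extracted with Trizol and RNeasy columns, depleted of ribosomal RNA, amplified and labelled with biotin, per the labels' protocols. Partek 6.5 and genome build mm8 are named in the submitters' processing notes. The deposited values are log2 signals per array feature, as their range shows. How probes were summarised and normalized is not given in the sources used here, there are no detection calls, and the values were used as deposited. In the platform annotation 14996 features had 1 symbol, 1019 had several and 7317 had none.

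Linear models with moderated variances were fitted to all 23332 features (limma version 3.58.1, run under R version 4.3.3). Tests were two-sided, p-values were adjusted by Benjamini-Hochberg, and the threshold was 0.05. A model with 1 mean per group over all 10 samples gave the comparisons of single groups and tested whether the p53 difference changed with mdm2. Mdm2 loss over both p53 genotypes came from an additive model. Precision is limited by how few arrays there are, with a median SE over features of 0.126 to 0.25 by comparison.

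The 7 genes, the 8 pathway lists and the 11 marker lists were chosen with earlier results of these data known. Named besides the 7 were Mdm2, called pathway genes (up to 4 per comparison), the 4 glucocorticoid-induced genes of smallest p for mdm2 loss over both p53 genotypes, and the 3 genes most like each of the 7. Marker genes that check the tissue were named besides, as were Fkbp5, Mt2, Nr1d2, Zfp36l2, Lcn2, Errfi1, Bcl6 and Anxa1, which fall outside that rule and were chosen after their values were seen. A list gene with several features was read from the brightest. Alternatives were median centring, quantile normalization, filters on dim features, other variance models, a replicate block, the mean of a gene's features, the compared groups alone and leaving out each sample.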

Additional observations from a re-analysis of the deposited data

How the results depend on the processing

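Over 112 combinations of an alternative and a comparison, limma called at most 1 of the 7 genes, in the fits without either p53-null sample that lacked mdm2, as given in the report. Of the 87 pathway genes, between 0 and 4 were called for mdm2 loss over both p53 genotypes, 0 or 1 for mdm2 loss in mutant p53 thymi, and 0 in the other comparisons. The Btg1 call was also lost with the replicate block (adjusted p = 0.106, limma). Over 18 settings the adjusted p of Btg1 lay between 0.0144 and 0.106.

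The number of features called over the whole table moved more. With mdm2 loss over both p53 genotypes it rose above the main count with quantile normalization (1095) and with an intensity trend (1212). It also rose without the dimmest 25% and 50% of features (1107 and 1300). For mdm2 loss over both p53 genotypes 902 were called (458 higher and 444 lower), 453 with a plain linear model, 61 with the replicate block and between 114 and 776 without 1 sample, and median centring gave 539 higher and 277 lower. For mdm2 loss in p53-null thymi the 5 calls became 13 without the dimmest 50% of features, 0 with the compared groups alone and 3 to 62 without 1 sample. For mdm2 loss in mutant p53 thymi the 3 calls (2 higher, 1 lower) became 4 with median centring (2 and 2), 7 with quantile normalization (4 and 3), 11 and 143 without the dimmest 25% and 50% of features, 32 with an intensity trend, 5 with the replicate block, 8 with the compared groups alone and 0 to 63 without 1 sample. For the p53 genotype with mdm2 the 0 calls became 1 with the compared groups alone and 0 to 1 without 1 sample. Without mdm2 they became 0 to 5, and for the difference between backgrounds 0 to 2, without 1 sample. The cause was not tested.

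Replicate numbers come from the titles. Of 13 pairs of samples with the same number in different groups, 1 had a correlation of deviations over 0.1 (range -0.19 to 0.19), so the numbers were not treated as pairs. The depth of signal over background cannot be judged without detection calls.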
